A study of Homo sapiens with 8 samples.

Results

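The 10 genes described here encode the enzymes that make fatty acids from acetyl-CoA and then lengthen, desaturate and activate them: ACLY, ACSS2, ACACA, FASN, ELOVL5, ELOVL6, SCD, FADS1, FADS2 and ACSL3. They were chosen by name for these roles from the 58219 genes listed for each library, with no cut-off on a measured value. Earlier results of these data were known when they were chosen. All 10 were among the 13140 protein-coding genes that had enough counts to be tested. RNA was sequenced from KMS11 and H929 cells, established multiple myeloma (MM) cell lines that both carry t(4;14), a translocation between chromosomes 4 and 14. The cells were grown in RPMI medium with fetal bovine serum and kept for 24 h in 2 µM fluvastatin or in ethanol, the solvent control. Each of the 4 groups (KMS11 in ethanol, KMS11 in fluvastatin, H929 in ethanol, H929 in fluvastatin) had 2 biological replicates, so each line stands for 1 line and no t(4;14)-negative line was included.

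De novo synthesis starts with cytosolic acetyl-CoA, which ACLY (ATP citrate lyase) makes from citrate and ACSS2 (an acyl-CoA synthetase) makes from acetate. ACACA (acetyl-CoA carboxylase) turns acetyl-CoA into malonyl-CoA, FASN (fatty acid synthase) builds palmitate from both, ELOVL6 and ELOVL5 lengthen saturated and polyunsaturated chains, SCD (stearoyl-CoA desaturase) makes oleate and palmitoleate, FADS1 and FADS2 desaturate dietary polyunsaturated chains, and ACSL3 joins free fatty acids to coenzyme A. Statins block the mevalonate pathway, and the sterol regulatory element binding proteins (SREBPs), which are processed when membrane sterols fall, act on genes of both sterol and fatty acid synthesis.

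In KMS11, 4 of the 10 genes rose with fluvastatin (ACLY, ACSS2, FASN and ELOVL6), as 2.56% of all tested genes did, and none was called lower, as 0.533% were. In H929, 5 of the 10 fell (ACLY, ACACA, FASN, SCD and FADS1), as 19.2% of all tested genes did, and ELOVL6 rose, as 22.7% did. The response differed between the lines for 7 of the 10 genes, always towards higher values in KMS11, a direction called for 11.7% of all tested genes. Here "rose", "fell" and "called" mean an adjusted p under 0.05, from the quasi-likelihood test of edgeR, with p-values adjusted by Benjamini and Hochberg's method over all tested genes, and "±" after a log2 fold change is its standard error. Of all tested genes, 3.1% were called within KMS11, 42% within H929 and 23.3% for the difference between the responses. The median log2 fold change of the 10 genes was 0.67 within KMS11 and -0.48 within H929, beside 0.00 and 0.02 over all tested genes.

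The sequence before the start site was examined for 9 of the 10 genes, which had 14 RefSeq promoters between them (GRCh38.p14, 250 bases before to 50 after the start). FASN had no entry. The letters of 4 motifs were searched on both strands. CCAAT, the letters of the NF-Y box, stood in 9 of the 14 promoters, from 7 genes, and in 34.6% of all 34796 promoters of that length. GGGCGG, a GC box, stood in 11 of the 14, from 8 genes, and in 44.9% of all promoters. TCACNCCAC, the letters of a common sterol regulatory element, stood in 0 of the 14 and in 1.12% of all promoters. At a share that low, 0 of 14 is the likely count for any set of genes. The search took 1 spelling of the element, so it does not show that these genes lack such elements. CACGTG, an E-box, stood in 1 of the 14 (ELOVL5) and in 7.20% of all promoters. Neighbouring GC boxes can overlap each other in GC-rich runs. Shown here are the promoters of ACLY, SCD and FADS1, which fell in H929, of FADS2, the neighbour of FADS1, and of ACSL3, both called in neither line. ACLY and FADS2 each have another listed promoter, which overlaps the one shown. The other of ACLY holds both motifs, and the other of FADS2 (chr11:61815953-61816252) holds none of the 4. Capitals mark CCAAT and GGGCGG on either strand, and each sequence runs 5′ to 3′ on the strand of its gene.
ACLY promoter, chr17:41918973-41919272, minus strand: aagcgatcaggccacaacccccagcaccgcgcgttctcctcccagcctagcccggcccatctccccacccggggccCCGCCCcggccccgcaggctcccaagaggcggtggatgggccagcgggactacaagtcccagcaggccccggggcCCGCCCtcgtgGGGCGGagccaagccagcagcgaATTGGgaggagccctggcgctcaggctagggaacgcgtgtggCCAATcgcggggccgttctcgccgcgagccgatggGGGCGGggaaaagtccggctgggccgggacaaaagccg
SCD promoter, chr10:100346983-100347282, plus strand: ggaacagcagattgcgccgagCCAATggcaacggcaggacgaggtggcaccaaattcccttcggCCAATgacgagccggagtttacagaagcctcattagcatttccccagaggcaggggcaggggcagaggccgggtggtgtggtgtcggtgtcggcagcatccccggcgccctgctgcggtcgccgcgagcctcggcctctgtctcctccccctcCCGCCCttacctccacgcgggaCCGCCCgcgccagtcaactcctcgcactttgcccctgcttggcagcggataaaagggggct
FADS1 promoter, chr11:61816954-61817253, minus strand: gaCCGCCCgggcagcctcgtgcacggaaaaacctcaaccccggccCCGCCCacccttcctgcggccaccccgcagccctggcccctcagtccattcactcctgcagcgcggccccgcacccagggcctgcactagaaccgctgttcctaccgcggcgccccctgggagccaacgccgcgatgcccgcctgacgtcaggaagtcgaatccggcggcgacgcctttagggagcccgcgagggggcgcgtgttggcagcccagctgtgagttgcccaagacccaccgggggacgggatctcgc
FADS2 promoter, chr11:61816154-61816453, plus strand: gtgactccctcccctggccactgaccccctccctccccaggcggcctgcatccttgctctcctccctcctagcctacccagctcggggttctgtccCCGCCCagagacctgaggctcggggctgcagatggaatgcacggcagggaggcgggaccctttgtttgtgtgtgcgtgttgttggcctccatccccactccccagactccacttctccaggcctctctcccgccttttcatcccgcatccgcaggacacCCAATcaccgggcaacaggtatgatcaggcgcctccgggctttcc
ACSL3 promoter, chr2:222860786-222861085, plus strand: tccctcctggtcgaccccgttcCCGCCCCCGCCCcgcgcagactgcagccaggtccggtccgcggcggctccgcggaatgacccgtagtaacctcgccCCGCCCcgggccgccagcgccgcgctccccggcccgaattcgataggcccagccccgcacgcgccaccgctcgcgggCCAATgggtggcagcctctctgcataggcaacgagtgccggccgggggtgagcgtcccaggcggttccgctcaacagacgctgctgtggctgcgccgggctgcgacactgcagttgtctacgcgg
The SCD promoter holds a pair of CCAAT letters on the gene's own strand well before the start and GC boxes close to it, and the ACLY promoter holds both motifs on both strands. The ACSL3 promoter holds both motifs too. FADS1 and FADS2 face opposite ways on chromosome 11, with the FADS1 start site 800 and 599 bases from those of FADS2.

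Levels differed between the lines before any drug. Between genes, levels were compared as TPM (a transcript level scaled to the library and divided by transcript length). In KMS11 in ethanol, SCD was the highest at 103 and 105 TPM in replicates 1 and 2, followed by ACLY at 92.0 and 90.9. ELOVL5, ACSL3, ACACA, ELOVL6, FADS2, FADS1 and FASN followed in that order, from 46.5 and 35.9 TPM down to 7.89 and 6.67, and ACSS2 was the lowest at 2.40 and 2.99 TPM. No neighbours in this order overlapped. In H929 in ethanol, SCD (44.5 and 34.9 TPM), ACLY (35.5 and 31.2) and FADS2 (36.8 and 21.8) were the highest and overlapped one another. FADS1 and FASN overlapped too, as did ELOVL6 and ACSS2 at the bottom, which lay between 1.72 and 2.78 TPM. The summed TPM of the 10 genes was 348 and 336 in KMS11 in ethanol and 209 and 170 in H929 in ethanol.

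Tested on counts, 9 of the 10 genes differed between the lines in ethanol, where 72% of all tested genes did. ACLY, ACACA, ELOVL5, ELOVL6, SCD and ACSL3 were higher in KMS11, as 35.7% of tested genes were, and FASN, FADS1 and FADS2 were lower there, as 36.3% were. ELOVL6, the elongase of palmitate, had the widest gap of the 10. It stood at 67.0 and 67.4 CPM (counts scaled to a common library size, TMM-normalized) in KMS11 and at 12.7 and 10.0 in H929, a log2 difference of 2.56 ± 0.14 (adjusted p = 1.5e-07). FADS2, the first desaturase of the polyunsaturated pathway, was at 29.6 and 32.8 CPM in KMS11 and at 147 and 93.7 in H929, and the log2 difference was -1.95 ± 0.32 (adjusted p = 0.00034). FADS1, the desaturase after it, was lower in KMS11 by a log2 difference of -1.20 ± 0.18 (adjusted p = 0.00017). The remaining log2 differences of genes higher in KMS11 ran from 0.44 ± 0.11 (ACSL3) to 0.91 ± 0.10 (ACLY), and ACSS2 was not called (0.15 ± 0.17, adjusted p = 0.45).

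The lines also differed in how counts followed GC content. The trend of a library at the 90th percentile of GC content (61.2% GC), relative to the mean of all libraries, lay between -0.51 and -0.39 on the log2 scale in 3 KMS11 libraries and between 0.07 and 0.56 in the H929 libraries. KMS11 in fluvastatin, replicate 1, stood apart from its line at 0.16. FASN has 65.3% GC, more than 97.9% of tested genes, and its baseline difference of -1.29 ± 0.39 (adjusted p = 0.013) became 0.05 (adjusted p = 0.79) once each library's GC trend was removed. That call was also lost without KMS11 in ethanol replicate 1 (-1.31, adjusted p = 0.054) or replicate 2 (-1.25, 0.062), or without H929 in ethanol replicate 1 (-0.91, 0.090). ELOVL5 and ACSL3, of low GC content at 42.8% and 37.9%, lost their baseline calls as well when the trend was removed (0.16, adjusted p = 0.077, and 0.10, 0.32).

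**Figure D1:**
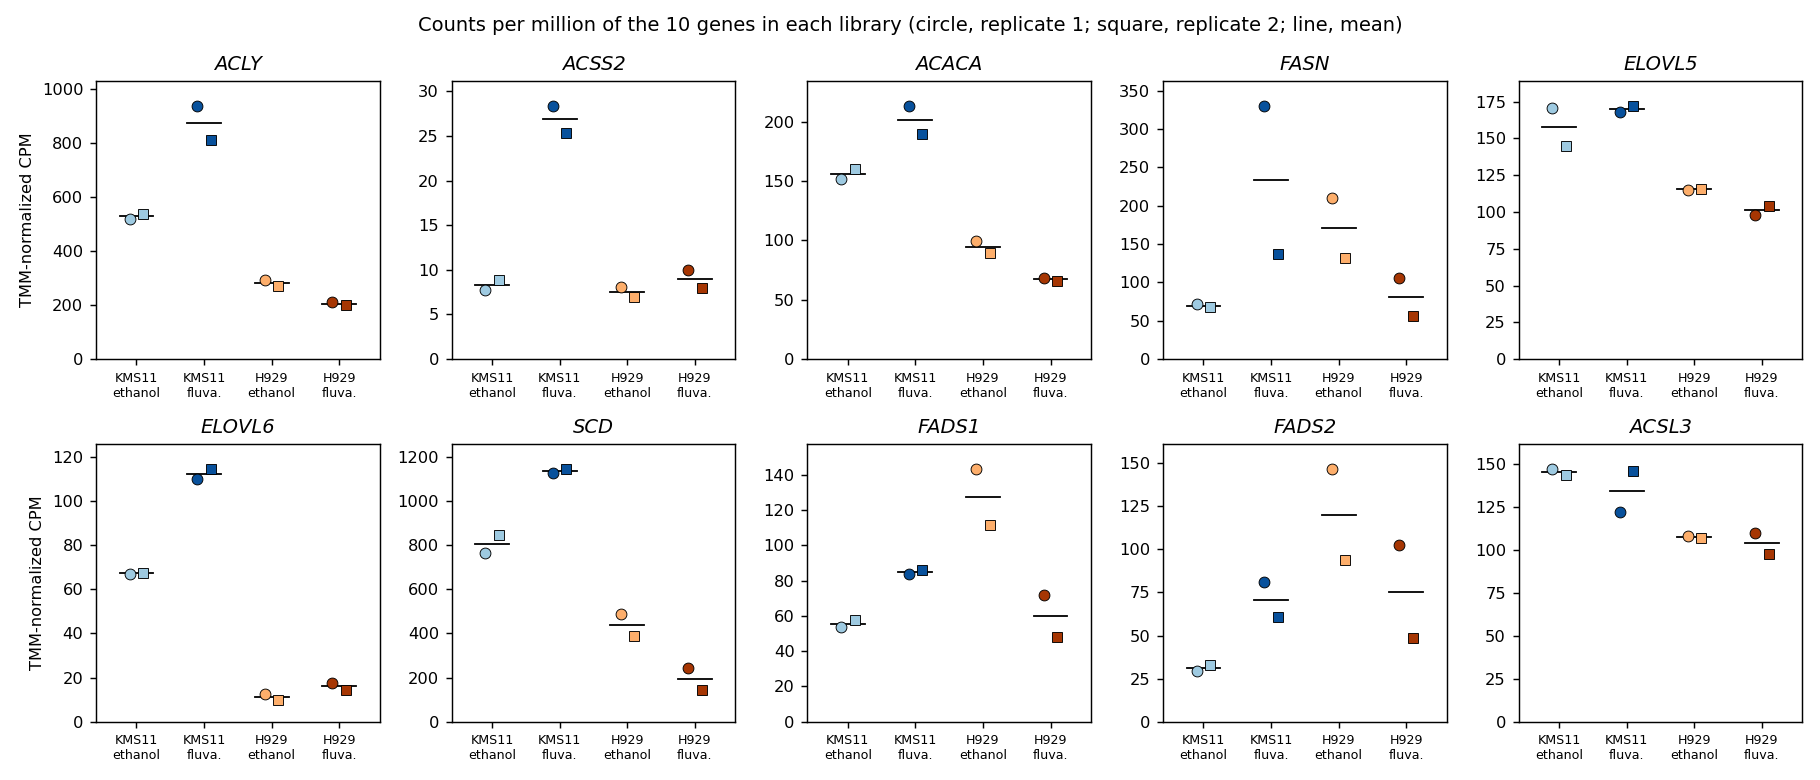
CPM (TMM-normalized counts, vertical axes from 0) of the 10 genes in each library by line and treatment; circles are replicate 1, squares replicate 2 and lines the group mean. ACLY, SCD and FADS1 lie higher with fluvastatin in KMS11 and lower in H929, without overlap, while the FASN libraries of KMS11 in fluvastatin stand far apart at 329.8 and 137 CPM.

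Both enzymes of acetyl-CoA supply rose in KMS11. Positions of genes are given on GRCh38 from GENCODE release 44, with the identifiers of the deposited files. ACLY (ENSG00000131473.16, chr17:41866917-41930542, minus strand) went from 517 and 538 CPM in ethanol to 935 and 809 with fluvastatin in KMS11. In H929 it went from 294 and 270.0 to 211 and 199 CPM. The fluvastatin libraries lay above those in ethanol in KMS11 and below them in H929, with no overlap. The log2 fold change was 0.72 ± 0.10 in KMS11 (adjusted p = 0.0043) and -0.46 ± 0.10 in H929 (adjusted p = 0.0045). ACLY and FASN were the members called higher within KMS11 and lower within H929, which held for 15 of all tested genes (0.114%). The KMS11 call was lost without either ethanol library of that line (0.67, adjusted p = 0.11, without replicate 1, and 0.73, 0.070, without replicate 2), while the gap between the responses, 1.18 ± 0.14 (adjusted p = 0.00064), was called with each library left out in turn.

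ACSS2 (ENSG00000131069.19, chr20:34872146-34927962, plus strand) had the lowest counts of the 10. In KMS11 it stood at 7.75 and 8.89 CPM in ethanol and at 28.3 and 25.4 with fluvastatin, a 3.23-fold rise (log2 1.69 ± 0.16, adjusted p = 0.00052) that was called with every library left out in turn. In H929 it stood at 8.07 and 6.92 CPM in ethanol and at 10.0 and 8.02 with fluvastatin. Those H929 groups overlapped, and the log2 fold change of 0.26 ± 0.17 was not called (adjusted p = 0.25). It was called with the GC trend of each library removed (0.35, adjusted p = 0.036). The response was larger in KMS11 by 1.43 ± 0.24 on the log2 scale (adjusted p = 0.0031).

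The enzymes of chain synthesis had higher counts with fluvastatin in KMS11 and lower counts in H929. ACACA (ENSG00000278540.4, chr17:37084992-37406836, minus strand), which makes malonyl-CoA, went from 99.7 and 89.2 CPM to 68.0 and 66.0 in H929, a fall without overlap (-0.50 ± 0.10, adjusted p = 0.0030). In KMS11 it went from 152 and 159.8 CPM to 213 and 189, also without overlap, but 0.37 ± 0.10 was not called (adjusted p = 0.078). It was called without KMS11 in fluvastatin replicate 2 (0.41, adjusted p = 0.031), with DESeq2 (0.33, 0.046), without a filter on counts (0.36, 0.045) and with the GC trend removed (0.38, 0.010). It was not called with limma on log2(TPM + 1) (0.09, adjusted p = 0.69), where the median over all tested genes was -0.08. The TPM of ACACA in KMS11 overlapped, at 21.1 and 23.4 in ethanol and 23.0 and 24.2 with fluvastatin. The difference between the responses was 0.86 ± 0.14 (adjusted p = 0.0027).

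FASN (ENSG00000169710.8, chr17:82078338-82098294, minus strand) showed the largest difference between the responses and the widest spread between replicates. In KMS11 it rose from 71.3 and 68.1 CPM to 329.8 and 137 (1.74 ± 0.40, adjusted p = 0.047). In H929 it fell from 209.6 and 131 CPM to 105 and 56.3 (-1.08 ± 0.39, adjusted p = 0.049). Neither pair of groups overlapped, but in KMS11 the first fluvastatin library carried more than the second did by a wide margin, and it is the library whose GC trend stood apart. Without that library the KMS11 log2 fold change was 0.97 (adjusted p = 0.12), and with each library's GC trend removed it was 1.07 ± 0.17 (adjusted p = 0.0020). The KMS11 call was lost as well without KMS11 in ethanol replicate 1 (1.74, adjusted p = 0.29) or replicate 2 (1.68, 0.31), and with library size scaling (adjusted p = 0.056), a stricter count filter (0.052), all annotated genes (0.057) or limma on log2(TPM + 1) (1.37, 0.10).

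The fall of FASN in H929 was as near the threshold. It was not called without H929 in ethanol replicate 1 (-0.70, adjusted p = 0.25), H929 in fluvastatin replicate 2 (-0.70, 0.24), or either KMS11 ethanol library (-1.11, 0.060 and 0.059), and with the GC trend removed it was -0.87 ± 0.17 (adjusted p = 0.0010). Library size scaling (adjusted p = 0.062), a stricter count filter (0.057) and DESeq2 (0.12) also left it uncalled. The difference between the responses, 2.82 ± 0.56 (adjusted p = 0.0069), was 1.95 ± 0.24 (adjusted p = 0.00011) with the GC trend removed and was called with each library left out in turn, at values from 2.08 to 3.34.

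Of the elongases, ELOVL6 (ENSG00000170522.9, chr4:110045846-110199199, minus strand) was the only member called in the same direction in both lines. In KMS11 it rose from 67.0 and 67.4 CPM to 109.8 and 114 (0.74 ± 0.12, adjusted p = 0.013). In H929 it rose from 12.7 and 10.0 CPM to 17.6 and 14.6 (0.50 ± 0.14, adjusted p = 0.017). The groups did not overlap in either line, and the difference between the responses was not called (0.24 ± 0.19, adjusted p = 0.37). That difference was 0.44 with the GC trend removed (adjusted p = 0.089) and 0.67 with limma on log2(TPM + 1) (adjusted p = 0.058). The KMS11 call was lost without ethanol replicate 1 (0.71, adjusted p = 0.18) or replicate 2 (0.72, 0.18) of that line and with limma on log2(TPM + 1) (0.55, 0.10), and the H929 call without H929 in fluvastatin replicate 1 (0.36, adjusted p = 0.12) or H929 in ethanol replicate 2 (0.34, 0.12).

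The rise of ELOVL6 in H929 was seen in counts and not in TPM. RSEM gives each gene a mean transcript length weighted by the abundance of its transcripts, and for ELOVL6 in H929 this was 2329 and 2162 bases in ethanol and 3489.9 and 3500.1 with fluvastatin. The TPM, which divides by that length, was 2.77 and 2.34 in ethanol and 2.45 and 2.07 with fluvastatin, so the groups overlapped. ACSS2 behaved alike in H929, with a mean length of 1540.5 and 2045 bases in ethanol and 2619 and 2642 with fluvastatin, and TPM of 2.78 and 1.72 against 1.90 and 1.53. These were the members whose mean length in H929 was at least 1.3 times as long with fluvastatin without overlap, which held for 2.25% of tested genes. On the log2(TPM + 1) scale, where a change of a low gene is understated, limma gave -0.12 for ELOVL6 (adjusted p = 0.57) and -0.24 for ACSS2 (adjusted p = 0.33) in H929. In KMS11 the mean lengths of both genes overlapped between treatments, and no member met that rule, which 1.54% of tested genes met.

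**Figure D2:**
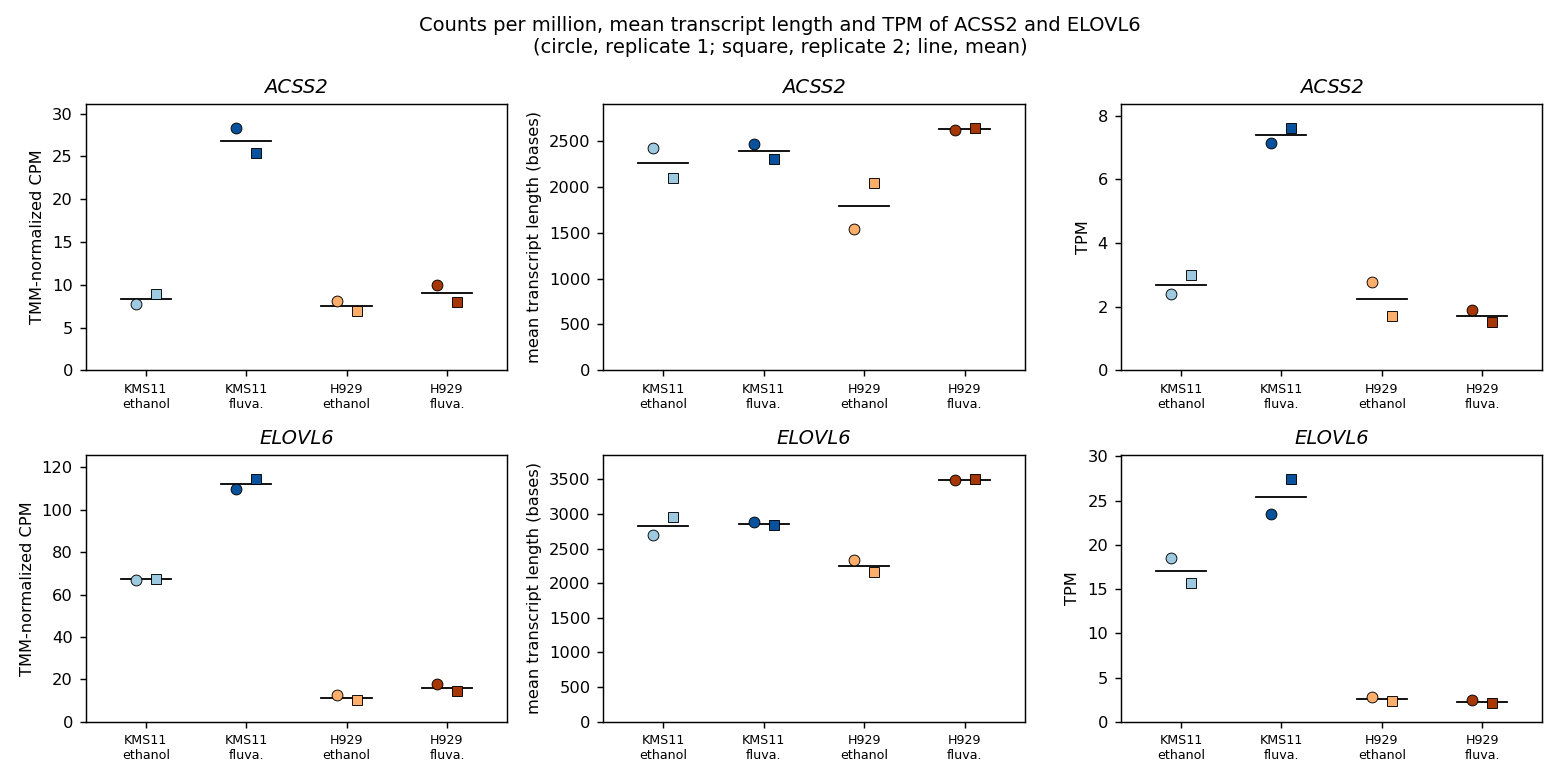
CPM, mean transcript length in bases and TPM of ACSS2 (top) and ELOVL6 (bottom) in each library, with all vertical axes from 0; circles are replicate 1, squares replicate 2 and lines the group mean. In H929 the mean length of ELOVL6 goes from 2329 and 2162 bases to 3489.9 and 3500.1, and its TPM overlaps between treatments although its counts do not.

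ELOVL5 (ENSG00000012660.13, chr6:53267398-53349179, minus strand), which lengthens polyunsaturated chains, passed the threshold in neither line. It stood at 171 and 145 CPM in ethanol and 168 and 172 with fluvastatin in KMS11, which overlapped. In H929 it stood at 115 and 116 CPM in ethanol and at 97.7 and 104 with fluvastatin, which did not overlap. Its log2 fold changes were 0.11 ± 0.10 in KMS11 (adjusted p = 0.55) and -0.19 ± 0.10 in H929 (adjusted p = 0.15). With the GC trend removed the H929 value was -0.30 (adjusted p = 0.0074) and the KMS11 response exceeded that of H929 by 0.47 (adjusted p = 0.0062, against 0.15 without that step).

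SCD and FADS1 fell in H929. SCD (ENSG00000099194.5, chr10:100347233-100364826, plus strand), which sets the ratio of monounsaturated to saturated chains, went from 489.6 and 391 CPM in ethanol to 243 and 145 with fluvastatin. FADS1 went from 143 and 111 to 72.0 and 47.9 CPM. For both genes the libraries did not overlap, and the log2 fold changes were -1.18 ± 0.20 (SCD, adjusted p = 0.0013) and -1.09 ± 0.18 (FADS1, adjusted p = 0.00096), falls of 2.27-fold and 2.13-fold that were called with every library left out in turn. FADS2 went from 147 and 93.7 CPM to 102 and 48.3. Its groups overlapped, and -0.68 ± 0.31 was not called (adjusted p = 0.11). With 1 library left out it ran from -1.31, without H929 in fluvastatin replicate 1, to -0.23. It was called without the filter on counts (-0.69, adjusted p = 0.016) and with a replicate block (-0.73, 0.0015). It was not called with DESeq2 (-0.67, adjusted p = 0.24), limma on log2(TPM + 1) (-0.63, 0.17) or the GC trend removed (-0.53, 0.058).

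In KMS11 all 3 desaturases had higher counts with fluvastatin in both libraries, and none passed the threshold. SCD stood at 763 and 848 CPM in ethanol and at 1125 and 1145 with fluvastatin (0.50 ± 0.20, adjusted p = 0.19). FADS1 stood at 53.5 and 57.5 against 83.5 and 86.2 CPM (0.61 ± 0.18, adjusted p = 0.095). FADS2 stood at 29.6 and 32.8 against 80.9 and 60.8 CPM (1.18 ± 0.32, adjusted p = 0.079). The spread in these tests is shared with H929, where the desaturases varied more between replicates. With only the KMS11 libraries in the fit, SCD (0.50, adjusted p = 0.030), FADS1 (0.61, 0.012) and FADS2 (1.18, 0.00094) were called. FADS1 and FADS2 were also called without either H929 fluvastatin library (0.031 and 0.033 for FADS1, 0.013 and 0.014 for FADS2), and FADS2 without KMS11 in fluvastatin replicate 2 (1.33, adjusted p = 0.017). With the GC trend removed FADS1 (0.51, adjusted p = 0.030) and FADS2 (0.96, 0.018) were called, and without a filter on counts they were too (0.61, 0.012, and 1.18, 0.0015). SCD was not called with the GC trend removed (0.53, adjusted p = 0.092). DESeq2 called FADS1 (0.58, adjusted p = 0.017) but not SCD (0.46, 0.081) or FADS2 (1.14, 0.086). With limma on log2(TPM + 1) none was called (SCD 0.35, adjusted p = 0.32, FADS1 0.33, 0.30, and FADS2 0.82, 0.18). With 1 library left out the values ran from 0.39 to 0.55 for SCD, 0.53 to 0.64 for FADS1 and 0.95 to 1.33 for FADS2.

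The difference between the responses was called for each desaturase, at 1.68 ± 0.28 for SCD (adjusted p = 0.0035), 1.70 ± 0.25 for FADS1 (adjusted p = 0.0018) and 1.86 ± 0.44 for FADS2 (adjusted p = 0.015). For FADS2 it was lost without KMS11 in ethanol replicate 1 (1.79, adjusted p = 0.063) and with limma on log2(TPM + 1) (1.45, 0.059). The annotated spans of FADS1 (ENSG00000149485.18, chr11:61799627-61829318, minus strand) and FADS2 (ENSG00000134824.13, chr11:61792980-61867354, plus strand) overlap. The libraries were made with a stranded kit, and the strand setting of the counting is not given in the sources used here, so how reads in the overlap were shared between the pair is uncertain. SCD has a single listed transcript of 5362 bases, so its counts and TPM cannot part through its length.

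ACSL3 (ENSG00000123983.13, chr2:222860942-222944639, plus strand), which activates fatty acids at the endoplasmic reticulum and lipid droplets, was called in neither line. In KMS11 it stood at 147 and 144 CPM in ethanol and at 122 and 146 with fluvastatin, and in H929 at 108 and 107 against 110.2 and 97.7. Both pairs of groups overlapped. The log2 fold changes were -0.12 ± 0.11 (adjusted p = 0.54) and -0.05 ± 0.11 (adjusted p = 0.76), and the difference between them was -0.07 ± 0.15 (adjusted p = 0.79).

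Counted over the 10 genes, both fluvastatin libraries lay above both ethanol libraries for 8 in KMS11, where 26.7% of all tested genes did. In H929 they lay below for 6, where 33.4% did, and above for 1 (ELOVL6), where 37.5% did. A positive fold change in KMS11, a negative one in H929 and a called difference between them were met by 6 of the 10 (ACLY, ACACA, FASN, SCD, FADS1 and FADS2) and by 7.5% of all tested genes. The difference between the responses uses the same libraries as the comparison within each line. With the lines fitted together, 10.5% of tested genes were called for fluvastatin against ethanol, 6.52% as higher, and of the 10 genes ELOVL6 was (0.62 ± 0.11, adjusted p = 0.017), while ACSS2 was just short (0.999 ± 0.28, 0.054). The ELOVL6 call was lost without KMS11 in ethanol replicate 2 (0.57, adjusted p = 0.051), H929 in fluvastatin replicate 1 (0.60, 0.069) or H929 in ethanol replicate 2 (0.59, 0.071), and ACSS2 was called without H929 in fluvastatin replicate 2 (1.22, 0.048).

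**Figure D3:**
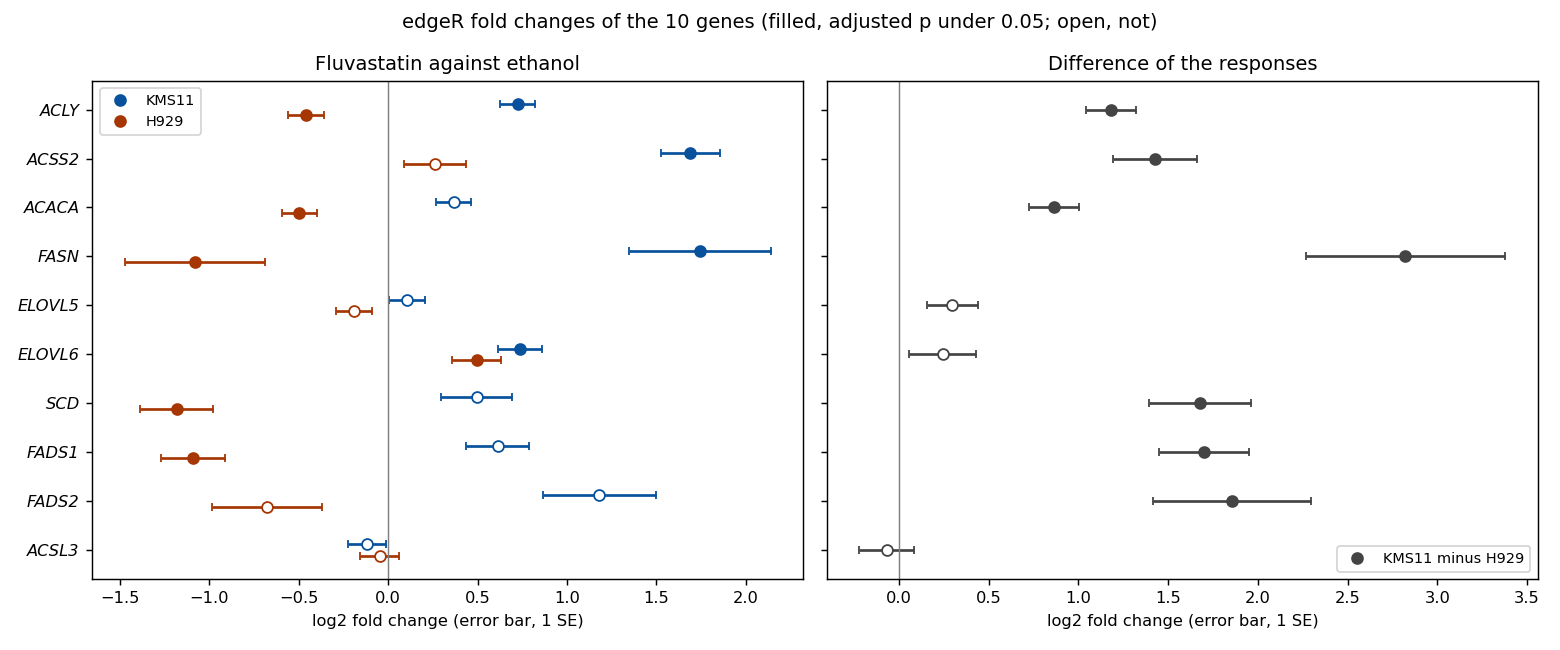
Log2 fold change (horizontal axes, error bars 1 SE) of the 10 genes from edgeR, for fluvastatin against ethanol within each line (left) and for KMS11 minus H929 (right); filled points had an adjusted p under 0.05. The 7 genes with a called difference lie at 0.86 to 2.82 on the right. ELOVL5 (0.30 ± 0.14), ELOVL6 (0.24 ± 0.19) and ACSL3 (-0.07 ± 0.15) were not called there.

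The count of 4 called genes within KMS11 moved when a library was left out. It was 1 (ACSS2) without either KMS11 ethanol library and 6 without KMS11 in fluvastatin replicate 2 or either H929 fluvastatin library, and over all genes the calls within KMS11 ran from 61 to 2134 when 1 library was left out. At an unadjusted p under 0.05, 8 of the 10 were higher in KMS11 and 0 lower, a count whose share over all tested genes was not taken. DESeq2 called 6 higher and 0 lower, beside 658 higher and 269 lower of all 13140 tested genes. Of the calls over all genes within KMS11, 337 were higher and 70 lower, against 979 higher and 715 lower with the GC trend of each library removed.

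**Figure D4:**
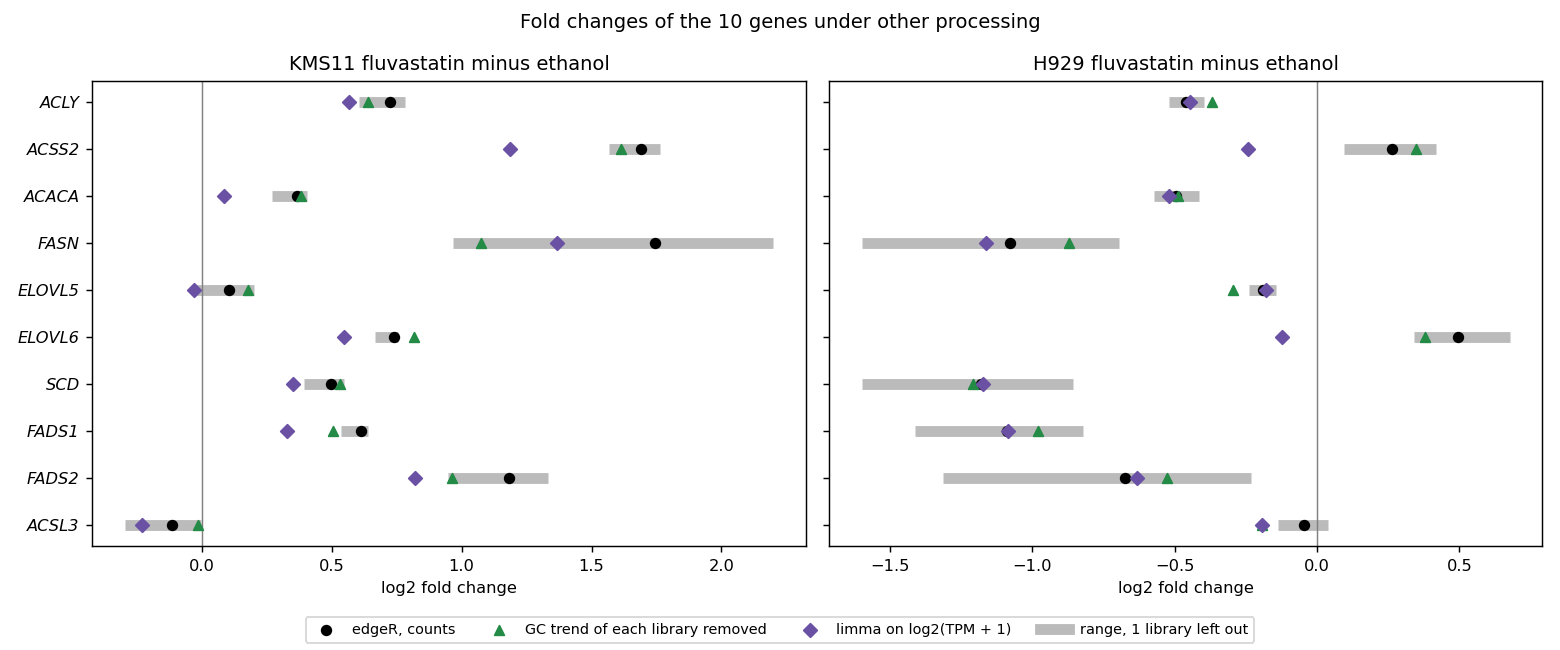
Log2 fold change of the 10 genes within KMS11 (left) and H929 (right) from edgeR on counts, with the GC trend of each library removed, and from limma on log2(TPM + 1); grey bars span the values with 1 library left out. FASN in KMS11 runs from 0.97 to 2.20 over the libraries left out, and ELOVL6 and ACSS2 in H929 change sign on the TPM scale.

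Together the 10 genes took up more of the transcripts in treated KMS11 and fewer in treated H929. Their summed TPM went from 348 and 336 in ethanol to 450.1 and 457 in fluvastatin in KMS11, and from 209 and 170 to 136 and 106 in H929, without overlap in either line. No test was run on these sums. SCD made up 20.6% to 21.3% of the sum in H929 in ethanol and 12.5% to 15.9% in fluvastatin, while ELOVL5 and ACSL3 took larger shares there. In KMS11 the ratio of SCD to FASN TPM was 13.0 and 15.8 in ethanol and 3.94 and 11.0 in fluvastatin, where the lowest value belongs to replicate 1. In H929 that ratio stayed between 2.36 and 2.86 in all 4 libraries. In bulk RNA, a smaller share of cells with a transcript and less transcript in each cell cannot be told apart.

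Within each line, other genes of fatty acid synthesis were called by edgeR at shares near those of all tested genes. The list held 30 tested genes for other steps of synthesis, elongation and activation. At an unadjusted p under 0.05, 8 of them were higher and 2 lower within KMS11, with no share over all tested genes taken. DESeq2 called 3 higher and 2 lower, beside 658 and 269 of all 13140 tested genes. By the edgeR call, 1 was higher and 0 lower within KMS11 (2.56% and 0.533% of all tested genes). The gene called was SLC25A1, the mitochondrial citrate carrier that feeds ACLY (1.21 ± 0.20, adjusted p = 0.013, a call lost without either KMS11 ethanol library). Within H929, 5 of the 30 were higher and 6 lower, beside 22.7% and 19.2% of all tested genes. SCD5, a paralogue of SCD, fell by 1.13 on the log2 scale (adjusted p = 0.00063), and ACSL1, a paralogue of ACSL3, rose by 0.89 (adjusted p = 0.00013). The median log2 fold change of the 30 was 0.04 in KMS11 and -0.08 in H929. For the difference between the responses, 6 of the 30 were called higher in KMS11 and 1 lower, beside 11.7% and 11.5% of all tested genes. The median of that difference was 0.19, against 0.00 over all tested genes.

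The regulators of lipid synthesis were called for 1 of 16 tested genes in KMS11 and 5 of 16 in H929 (1 higher, 4 lower), beside 3.1% and 42% of all tested genes. SREBF1, which encodes the SREBP that acts mainly on fatty acid genes, had log2 fold changes of 0.15 ± 0.28 (adjusted p = 0.79) in KMS11 and -0.21 ± 0.28 (adjusted p = 0.58) in H929. SREBF2, which encodes the SREBP that acts mainly on sterol genes, was at 0.90 ± 0.21 in KMS11 (adjusted p = 0.0503), called without KMS11 in fluvastatin replicate 2 or any single H929 library, and at 0.17 ± 0.21 in H929 (adjusted p = 0.55). INSIG1, which holds the SREBP precursor in the endoplasmic reticulum and is itself a target, rose in KMS11 (1.17 ± 0.19, adjusted p = 0.011, lost without either KMS11 ethanol library). In H929 INSIG1 was at -0.38 ± 0.19 (adjusted p = 0.14), called without H929 in fluvastatin replicate 1, and SCAP, the SREBP escort, was called in neither line (0.32 ± 0.21 in KMS11, adjusted p = 0.38, though called without fluvastatin replicate 2 of that line, and -0.29 ± 0.21 in H929, 0.29).

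Nearly all sterol synthesis genes rose in KMS11. Of 20 tested, 19 were higher within KMS11, beside 2.56% of all tested genes. Some of these calls, like those of the enzymes, were lost when a KMS11 ethanol library was left out. Within H929, 7 were lower and 1 higher, beside 19.2% and 22.7%. The response was larger in KMS11 for 18 of the 20, beside 11.7%. Their median log2 fold change was 1.29 in KMS11 and -0.28 in H929. HMGCS1, which makes HMG-CoA, was at 2.04 ± 0.11 in KMS11 (adjusted p = 1.3e-05) and 0.24 ± 0.10 in H929 (adjusted p = 0.097).

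Genes of glycerolipid assembly and of fatty acid oxidation are read beside the 3.1% of all tested genes called within KMS11 and the 42% within H929. Within KMS11, DESeq2 called 658 of all 13140 tested genes higher and 269 lower, and no share was taken at an unadjusted p. Of 25 tested genes of glycerolipid assembly, 2 were higher in KMS11 and 0 lower, and in H929 6 were higher and 3 lower. In KMS11, 5 were higher and 2 lower at an unadjusted p under 0.05, and 3 higher and 1 lower by DESeq2. LPCAT1, which reacylates lysophosphatidylcholine, rose in KMS11 (0.88 ± 0.08, adjusted p = 0.00044), and CHKA, a choline kinase, fell in H929 (-1.21 ± 0.12, adjusted p = 6.6e-05). Of 24 genes of oxidation, edgeR called 0 in KMS11, with 2 higher and 3 lower at an unadjusted p under 0.05 and 1 lower by DESeq2. In H929, 4 were higher and 4 lower, among them DECR1, which acts on double bonds (0.69 ± 0.11, adjusted p = 0.00092), and EHHADH of the peroxisome (0.93 ± 0.17, adjusted p = 0.0020). All these lists were named with earlier results of the data known.

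**Figure D5:**
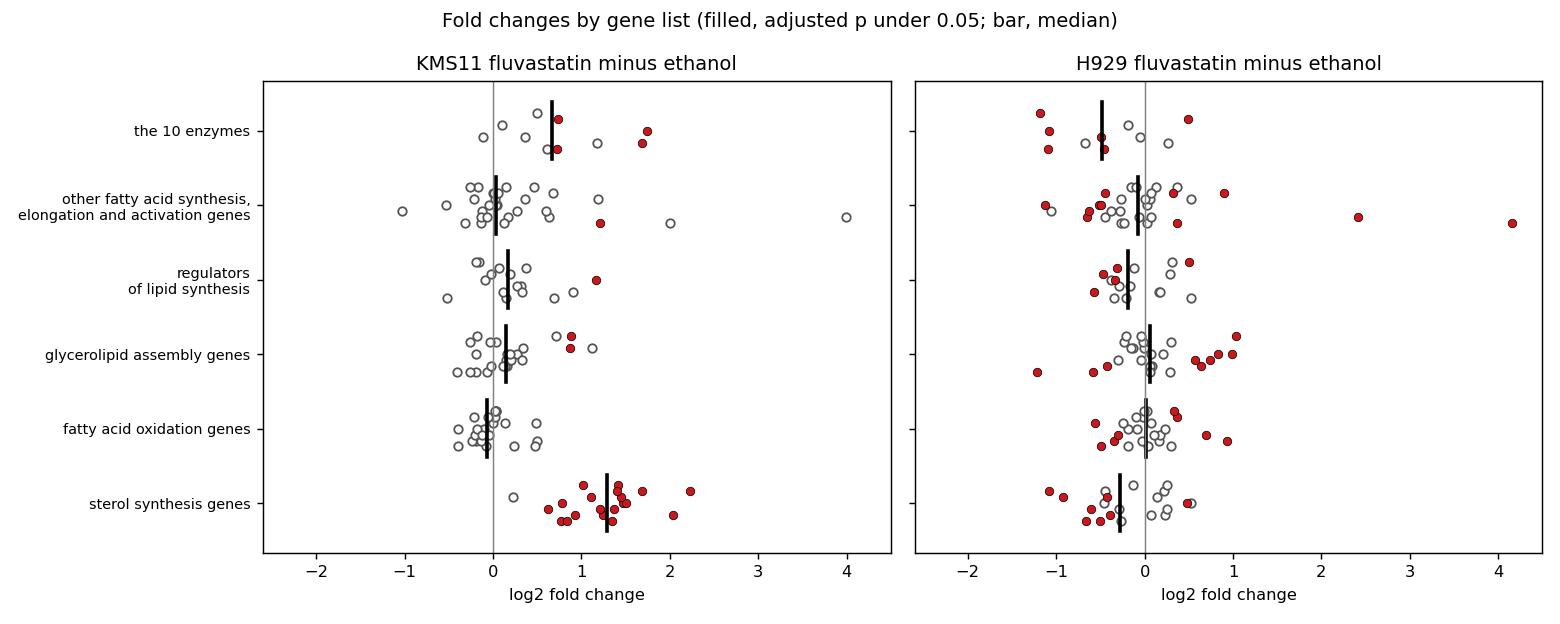
Log2 fold change of every tested gene of the 10 enzymes and of 5 lists of lipid genes within KMS11 (left) and H929 (right); filled points had an adjusted p under 0.05 and bars are medians. The sterol synthesis genes centre on 1.29 in KMS11 and -0.28 in H929, beside 0.67 and -0.48 for the 10 enzymes; the far-right points of the second list are OLAH and ACSL6, genes of low count named after their values were seen.

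By pattern over the 8 libraries, the tested genes nearest the 10 enzymes were ADCY1, TJAP1, EBP, MMAB and FDPS. Each gene's log2 CPM was centred within its line, and the root mean square difference to the median of the 10 enzymes was taken over 8852 genes of sufficient level. The difference was 0.071 for ADCY1, an adenylyl cyclase, 0.075 for TJAP1, a tight junction associated protein, 0.077 for EBP, a sterol isomerase, 0.080 for MMAB, an enzyme of cobalamin metabolism, and 0.080 for FDPS, which makes farnesyl diphosphate. Among the enzymes themselves ACLY lay closest to that median at 0.062, and FASN lay farthest at 0.57, followed by ACSS2 at 0.45. The likeness describes these 8 libraries and was not tested.

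Totals ran from 26702515 to 41910446 expected counts per library, of which 85.2% to 91.4% fell on protein-coding genes. Plasma cell markers summed to 4601 to 7987 TPM per library, of which JCHAIN made up 3935 to 6237. Of the 10 markers, 5 fell within H929 (SDC1 by 1.08, MZB1 by 1.02, SLAMF7 by 0.98, POU2AF1 by 0.59 and XBP1 by 0.34 on the log2 scale) and 2 rose, and within KMS11 1 fell (XBP1). CD38 was at most at 0.04 TPM in KMS11. The part of these changes in the results was not tested. Monocyte markers (2 of 7 at 0 in every library) and adipocyte and hepatocyte markers (4 of 8 at 0) summed to at most 0.87 and 0.46 TPM. T and NK cell markers, of which none was at 0 throughout, summed to 0.40 to 0.77 TPM in KMS11 and to 1.57 and 1.64 in ethanol and 3.63 and 4.60 in fluvastatin in H929, where the part of these transcripts in the results was not tested. Stroma and endothelium markers (3 of 7 at 0) summed to 1.06 to 1.57 TPM in KMS11 and 5.96 to 8.15 in H929. Most of each sum was PECAM1, at 0.87 to 1.48 TPM in KMS11 and 5.87 to 7.98 in H929. Most of the T and NK cell sum in H929 was CD3E, at 1.49 and 1.59 TPM in ethanol and 2.92 and 3.54 in fluvastatin.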

How the data were processed

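RNA-seq of KMS11 and H929 cells was analysed from the gene tables of 8 libraries. After ribosomal RNA was depleted, the authors made stranded libraries of total RNA, aligned reads to GRCh38 (hg38) with STAR 2.5.2b and, with GENCODE release 26, estimated expected counts per gene with RSEM 1.3.0. The deposited expected counts are not normalized, the deposited TPM values are scaled by the authors to transcript length and library, and the deposited FPKM values, another scaling of the same estimates, were not used. The mean transcript length of each gene was taken from the deposited tables as well. Depth was 26702515 to 41910446 expected counts per library. How much counting error adds to the spread between replicates was not assessed, and ACSS2 had 173 to 973 expected counts per library.

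Biotypes, positions and GC content came from GENCODE release 44 (57392 of 58219 identifiers matched). Expected counts were rounded to whole numbers. Protein-coding genes that passed filterByExpr (count of at least 10, total of at least 15) were scaled by TMM and tested with edgeR 4.0.16 in R 4.3.3, by the quasi-likelihood F test, with p-values adjusted over 13140 genes (Benjamini-Hochberg) and called under 0.05. The 4 group means were fitted to all 8 libraries, and contrasts gave the effect in each line, the difference between the effects and the difference between the lines in ethanol. A fit with terms for line and treatment gave the effect over both lines. The standard error is the log2 fold change divided by the square root of F. Samples were grouped by their labels. Nothing says how the biological replicates were separated, so p values measure the spread between these libraries.

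The enzymes and the lists were chosen with earlier results of these data known. From each list at most 4 genes are named: called genes of mean log2 CPM at least 1 with the largest change, up to 2 for each line, with a few genes always allowed, SREBF1, SREBF2, INSIG1, SCAP and HMGCS1 among them. Some genes that this rule would name are not reported here. Genes most like the enzymes were ranked by root mean square difference of log2 CPM centred within each line, among genes of mean log2 CPM at least 3. Promoter sequences are from RefSeq (GRCh38.p14). Alternatives were median-of-ratios and library size scaling, no filter and a minimum count of 50, all annotated genes, a replicate block, DESeq2 1.42.0, limma 3.58.1 on log2(TPM + 1), a loess GC trend of each library (span 0.5) as an offset, leaving out each library, only the libraries of a line, and no cell line term. The edgeR script was tested on simulated data with known changes.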

Additional observations from a re-analysis of the deposited data

Results flagged for a closer look

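The response to fluvastatin differed between KMS11 and H929 for 7 of the 10 enzymes by the test of the difference itself (edgeR's quasi-likelihood test, adjusted p under 0.05), where 23.3% of all tested genes did. The log2 fold change of KMS11 minus that of H929 was 1.18 for ACLY, 1.43 for ACSS2, 0.86 for ACACA, 2.82 for FASN, 1.68 for SCD, 1.70 for FADS1 and 1.86 for FADS2. Adjusted p lay between 0.00064 (ACLY) and 0.015 (FADS2). The groups of 2 libraries are too small to test a single library for standing apart.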

How the results depend on the processing

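The 10 enzymes gave 50 log2 fold changes over the 5 comparisons. Over the alternatives other than leaving out a library, 433 recomputed values kept direction and call, 25 became called, 14 lost their call and 8 changed sign, and over the libraries left out in turn 352, 10, 20 and 18 did. The values that changed sign were, with limma on log2(TPM + 1), ELOVL5 in KMS11 (-0.0295) and ACSS2 (-0.24) and ELOVL6 (-0.12) in H929, and, without the cell line term, ACACA (0.0989), SCD (0.0940) and FADS2 (-0.0500) over both lines. With the GC trend removed they were ACSL3 for the difference between the responses (0.18) and FASN for the baseline (0.0522). With 1 library left out, changes of sign lay within these ranges: -0.0352 to 0.202 for ELOVL5 in KMS11, -0.136 to 0.0375 for ACSL3 in H929, -0.216 to 0.0772 for ACSL3 in the difference, and over both lines -0.0527 to 0.294 for ACLY, -0.206 to 0.0492 for ACACA, -0.221 to 0.892 for FASN, -0.149 to 0.00717 for ELOVL5, -0.510 to 0.0775 for FADS1 and -0.0589 to 0.649 for FADS2.

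The count of called enzymes within KMS11 moved from 4 to 7 without a filter, 7 with the GC trend removed, 7 with only that line's libraries and 2 with limma. Over both lines it moved from 1 to 2 with median-of-ratios scaling, no filter, DESeq2 or the GC trend removed, and to 0 with limma or no cell line term. With 1 library left out, the counts ran from 1 to 6 within KMS11, 5 to 7 within H929, 0 to 2 over both lines, 6 to 7 for the difference between the responses and 8 to 9 in ethanol. Over all genes, the 407 calls within KMS11 became 1694 with the GC trend removed, 1098 without a filter, 927 with DESeq2 and 204 with limma. With only that line's libraries they became 472 of 12337 tested genes. The 1375 calls over both lines became 3132 with the GC trend removed, 2558 with DESeq2 and 4 without the cell line term. The 3057 calls for the difference became 2019 with limma. In ethanol the 4693 higher and 4774 lower calls became 6654 and 2473 with limma on TPM, whose median log2 difference over all genes was 0.31 against -0.02, so baseline values on that scale are read relative to it.

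Same-numbered libraries did not deviate together in KMS11 (correlation of deviations -0.08 over 5561 genes) but did in H929 (0.77), and nothing in the labels pairs them. With the replicate block, 8 enzymes were called within KMS11 (1622 of all genes) and 7 within H929 (6424 of all 13140 genes, 48.9%). FADS2 was among those called within H929, at -0.73 ± 0.14 and an adjusted p of 0.0015. Over both lines 0 were called (158 of all genes, with ELOVL6 at an adjusted p of 0.052). For the difference 7 were called (4219 of all genes), and in ethanol 9 (9268 of all genes, 70.5%). The cause of these shifts was not tested. With 2 replicates a group, no value rests on more than 4 libraries in a line. The small responses of ELOVL5 and ACSL3 to fluvastatin were not called in the main fit, which does not show that there was none. That of ELOVL5 in H929 was called with the GC trend removed.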
